A study of Mus musculus with 6 samples.

Results

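The genes described here are 10 genes known for roles in skeletal muscle differentiation and fusion, roles that were not tested in these cultures. They include the myogenic regulatory factors Myf5, Myod1, Myog and Myf6 and the partner factors Mef2a, Mef2c and Mef2d. The others are the progenitor factor Pax7 and the fusion proteins Mymk and Mymx. All 10 genes were taken by gene name from a table of read counts for 54924 genes, and all 10 were found. The study asked which genes kaempferol, a plant flavonol, changes in C2C12 myotubes, the multinucleated cells that form when the mouse myoblast line C2C12 is held in medium with little serum. The control group was 3 libraries of myotubes without kaempferol. The kaempferol group was 3 libraries of myotubes given 25 μM kaempferol for 24 h. Both groups had been differentiated for 6 days in horse serum medium, and the labels state that the differentiated cells were then seeded again into plates overnight, a protocol worded alike for all samples that mentions kaempferol for the controls too. In the labels the line is written C2C13 for kaempferol and C2C12 for control, and a treatment tag of all samples reads dedifferentiation. The tag that gives control or kaempferol was followed. Whether replicate libraries stem from separate cultures is not stated, so any p-value here speaks only of how far these 6 libraries scatter, which may be technical. The model is 1 cell line, and RNA came from whole cultures, in which fewer cells of a type and less RNA per cell cannot be told apart.

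Muscle differentiation runs through a short chain of factors. Pax7 marks the satellite cells from which muscle is repaired. Myf5 and MyoD, encoded by Myod1, commit cells to the muscle fate. Myogenin, encoded by Myog, drives the exit into differentiation, and Myf6, also called MRF4, is abundant in mature fibers. The myogenic regulatory factors are basic helix-loop-helix (bHLH) factors that bind the E-box, CANNTG, as pairs with E proteins. The MEF2 proteins bind an A/T-rich site and act with them on muscle genes. Myomaker (Mymk) and myomixer (Mymx) are membrane proteins made at fusion, when myoblasts join into myotubes, and both are targets of the myogenic factors.

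Of these genes, Myog was upregulated with kaempferol, and Myod1 and the fusion gene Mymx were downregulated, by modest amounts. Each of these calls was lost when certain single libraries were left out. Values are counts per 1000000 counts of a library (CPM) after scaling between libraries, and each gene was compared by edgeR's quasi-likelihood test with Benjamini-Hochberg adjustment over the 14558 genes that had enough counts. An adjusted p under 0.05 is written here as upregulated or downregulated. Among the 10 genes 9 could be tested, all except Myf6. Of these 9, 1 was upregulated, where 11.3% of all tested genes were, and 2 were downregulated, where 12.6% were. With upper-quartile factors the split over all tested genes turned from 1647 higher and 1840 lower to 1966 higher and 1424 lower, and the median log2 fold change to 0.03, while the 3 calls kept their direction. With 24.0% of all tested genes called in either direction, 3 calls among 9 genes are near the background, so the count by itself is not a result about this group. The median log2 fold change of the 9 was -0.12, beside -0.0005 over all tested genes. The libraries held 16575790 to 18625272 counts each, with a median count of 441 to 501 for a tested gene.

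**Figure D1:**
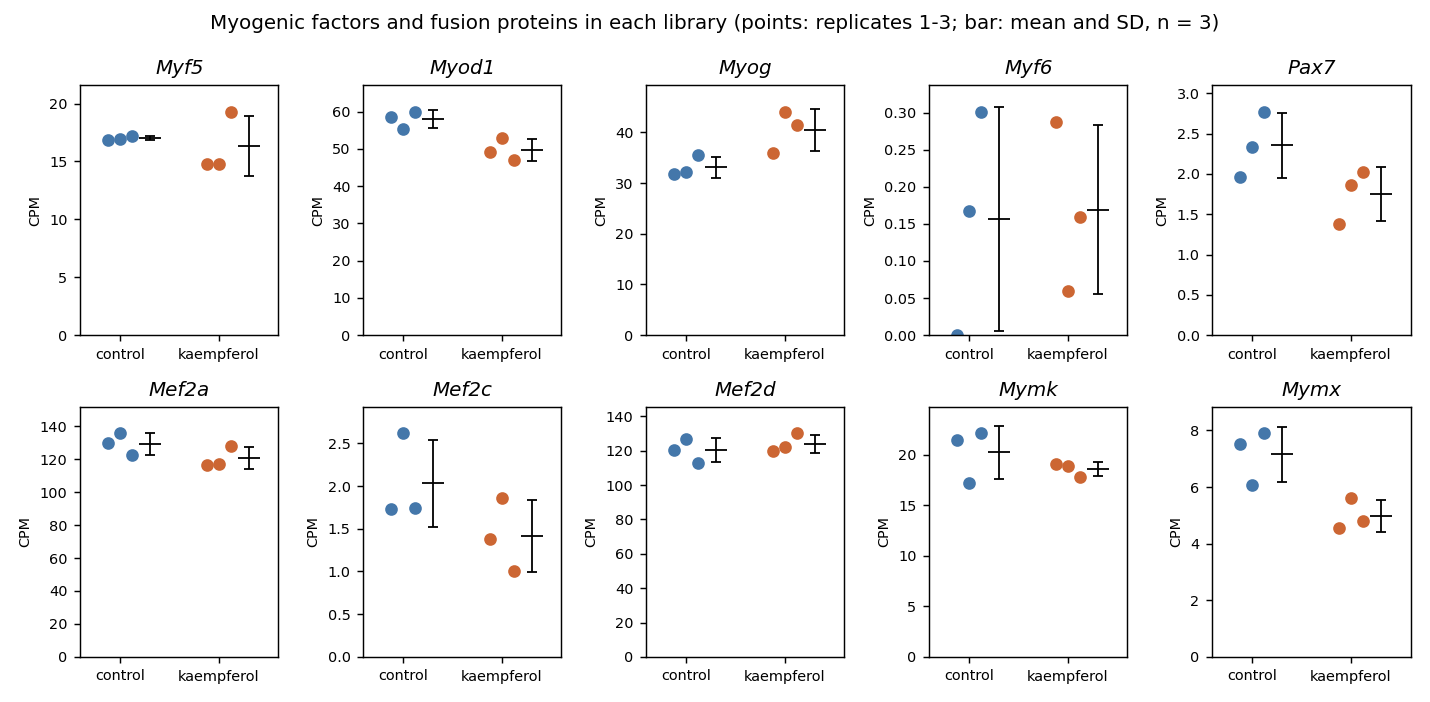
Expression of the 10 genes in CPM (y axis, from 0 and on its own scale for each gene) in the 3 control and 3 kaempferol libraries (points, in the order of replicates 1 to 3), with mean and SD beside them. The groups lie apart for Myod1, Myog and Mymx and overlap for the other 7 genes. Over all tested genes, the groups lie apart in either direction for 38.2%.

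Myod1 encodes the factor that can turn other cell types into muscle. It measured 58.6, 55.4 and 60.0 CPM in control and 49.2, 52.8 and 47.0 CPM with kaempferol. All kaempferol libraries were below all control libraries, as for 19.6% of all tested genes. The mean fell from 58.0 ± 2.35 to 49.7 ± 2.92 CPM (SD, n = 3) (log2 fold change -0.22, SE 0.0633, edgeR adjusted p = 0.016). The gene lies on chromosome 7 of mm10 from 46376474 to 46379099 and has 3 exons. Its call depended on single libraries: the adjusted p from the same test was 0.067 without control replicate 1, 0.0516 without kaempferol replicate 1 and 0.0692 without kaempferol replicate 3.

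Myog, the factor of terminal differentiation, went the other way. It measured 31.7, 32.2 and 35.5 CPM in control and 35.9, 44.1 and 41.5 CPM with kaempferol. All kaempferol libraries were above all control libraries, as for 18.6% of all tested genes, but kaempferol replicate 1 lay only just above control replicate 3. The mean rose from 33.1 ± 2.06 to 40.5 ± 4.17 CPM (log2 fold change 0.29, SE 0.0807, edgeR adjusted p = 0.0143), or 1.22-fold with a 95% interval of 1.09 to 1.38. The gene lies on chromosome 1 from 134289989 to 134292548 and also has 3 exons. The adjusted p of Myog was 0.0587 without control replicate 1 and 0.0799 without kaempferol replicate 2. DESeq2 called both genes, with an adjusted p of 0.0195 for Myog and 0.0257 for Myod1.

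The stretch just before the Myog start is a textbook meeting point of myogenic factors and MEF2, and it is shown here because Myog was the 1 upregulated gene of the group. The 250 bases before the RefSeq start (chr1:134289754-134290003 of GRCm38, plus strand) are given 5′ to 3′, with capitals for E-boxes (CANNTG) and for the A/T-rich core CTANNNNTA, both searched on both strands.
Myog promoter: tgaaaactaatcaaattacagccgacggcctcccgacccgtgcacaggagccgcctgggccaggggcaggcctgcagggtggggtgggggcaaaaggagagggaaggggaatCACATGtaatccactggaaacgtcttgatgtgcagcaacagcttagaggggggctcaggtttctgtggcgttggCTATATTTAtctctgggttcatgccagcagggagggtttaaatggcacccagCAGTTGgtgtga
The capitals mark CACATG, CTATATTTA and CAGTTG, whose first bases lie 138, 64 and 12 bases before that start. The gene as counted starts earlier, at 134289989, so CAGTTG at 134289992 to 134289997 lies inside the counted gene. The core CTANNNNTA was chosen with this sequence in view. E-boxes occur in 72.3% of all 32851 promoter windows of 300 bases and the core in 21%, while the full MEF2 consensus, with a match in 3.19% of windows, had none here. Promoter windows were matched for 6 of the 10 genes, with no entry used for Myod1, Myf6, Mymk and Mymx. In the other 7 windows, which belong to Myf5, Pax7, Mef2a, Mef2c and Mef2d, an E-box was found in 2 windows of Mef2c. The MEF2 consensus was found 1 time, in Mef2a. The core CTANNNNTA was found 2 times in Mef2a, 2 times in Myf5 and 1 time in a window of Mef2c, none of which were called, as against 1 time in Myog. The E-box form CAGCTG, in 16.3% of all windows, was in none of these 8. A match is a run of letters and was not tested as a binding site.

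Myf5, which acts beside MyoD in commitment, measured 16.9, 17 and 17.2 CPM in control and 14.8, 14.8 and 19.3 CPM with kaempferol. The control values were almost alike, and kaempferol replicate 3 stood above all of them while the other kaempferol libraries stood below. Its log2 fold change was -0.06 with a 95% interval of -0.28 to 0.17 (adjusted p = 0.754), so a change within that interval was neither shown nor excluded. Myf6 lies 6718 bases from Myf5 on chromosome 10, on the same strand. Its counts were 0, 3 and 5 in control and 5, 1 and 3 with kaempferol, or 8 and 9 counts per group, with exact 95% Poisson intervals of 3.45 to 15.8 and 4.12 to 17.1 that cover counting error only. Myf6 was thus scarcely counted in either group, and no fold change is given. In the control library without a count, 3 counts would be 0.173 CPM.

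The MEF2 genes were not called. Mef2a measured 130, 136 and 122 CPM in control and 117, 117 and 128 CPM with kaempferol, so that kaempferol replicate 3 fell among the controls. Its log2 fold change was -0.10 (95% interval -0.21 to 0.01, adjusted p = 0.182). Mef2d measured 121, 127 and 113 CPM in control and 120, 122 and 130 CPM with kaempferol, with a log2 fold change of 0.04 (95% interval -0.07 to 0.15, adjusted p = 0.598). On the fold scale the interval of Mef2a ran from 0.864 to 1.01 of the control level and that of Mef2d from 0.955 to 1.11. Mef2c, the MEF2 gene linked to the maintenance of differentiated muscle, was far lower, at 1.73, 2.62 and 1.75 CPM in the control libraries and 1.38, 1.86 and 1.01 CPM in the kaempferol libraries. These are 19 to 47 counts a library, and the log2 fold change of -0.53 came with a wide 95% interval of -1.17 to 0.10 (adjusted p = 0.22). Of the exonic bases of Mef2a, 302 are shared with the opposite-strand gene Lysmd4, and 531 bases of Mef2d with the antisense transcript 1700113A16Rik, which held 3 to 13 counts a library. Mef2a exons also hold stretches of at least 100 bases that are at least 95% identical to transcripts of 44 other genes, so part of its reads may have been lost or shared in counting.

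Pax7 was low in all libraries. It measured 1.96, 2.34 and 2.77 CPM in control and 1.38, 1.86 and 2.02 CPM with kaempferol, which is 24 to 46 counts each. Kaempferol replicate 3 overlapped the control range, and the log2 fold change was -0.42 (95% interval -0.97 to 0.12, adjusted p = 0.263). The intervals of both Pax7 and Mef2c include 0 as well as falls larger than that of Mymx, so a fall of that size was neither shown nor excluded at this depth.

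Of the fusion proteins, Mymx fell and Mymk did not pass the test. Mymx encodes a short protein that acts at the cell surface to open the fusion pore. It measured 7.51, 6.07 and 7.89 CPM in control and 4.54, 5.63 and 4.78 CPM with kaempferol, from 79 to 131 counts each. All kaempferol libraries lay below all control libraries, although control replicate 2 and kaempferol replicate 2 came close. The mean fell from 7.16 ± 0.963 to 4.98 ± 0.572 CPM (log2 fold change -0.52, SE 0.157, edgeR adjusted p = 0.0216), or 0.697 of the control level with a 95% interval of 0.554 to 0.875. The adjusted p of Mymx was 0.0611 with DESeq2, 0.0771 without control replicate 1, 0.0777 without control replicate 3, 0.0771 without kaempferol replicate 1 and 0.0586 without kaempferol replicate 3. Its log2 fold change stayed between -0.62 and -0.45 over the 6 left-out libraries.

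The reading frame of Mymx is printed as the part of the gene that encodes this short protein. It takes up 255 of the 1027 exonic bases over which reads were counted, on chromosome 17, alike in 3 of the 4 annotated coding transcripts, whose longest frame is 327 bases (chr17:45601417-45601671 of GRCm38, minus strand, GENCODE M21). Capitals mark the start and stop codons.
Mymx coding sequence: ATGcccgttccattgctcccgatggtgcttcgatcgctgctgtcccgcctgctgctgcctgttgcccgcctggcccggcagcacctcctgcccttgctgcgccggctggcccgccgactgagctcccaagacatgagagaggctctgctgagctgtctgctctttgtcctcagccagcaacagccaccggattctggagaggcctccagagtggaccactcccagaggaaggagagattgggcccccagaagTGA
The longest annotated frame of Mymk is 666 bases and that of Mef2d 1545 bases. No other gene's transcript matched that of Mymx, Mymk, Pax7 or any of the myogenic regulatory factors at 95% identity over 100 bases. Within the group, the longest matches were Mef2c with Mef2d, at 73.1% over 491 bases, and Mef2a with Mef2c, at 77.6% over 469 bases. The longest match of Myod1 was with Myf5, at 78.5% over 274 bases.

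Mymk, on chromosome 2 from 27061636 to 27072179, encodes the membrane protein that mixes the outer membrane leaflets of fusing cells. It measured 21.4, 17.3 and 22.1 CPM in control and 19.1, 18.9 and 17.8 CPM with kaempferol. Control replicate 2 was the lowest of all 6 libraries, so the groups overlapped, and the log2 fold change was -0.12 (95% interval -0.33 to 0.08, adjusted p = 0.408). Control replicate 2 was also the lowest control library for Mymx.

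**Figure D2:**
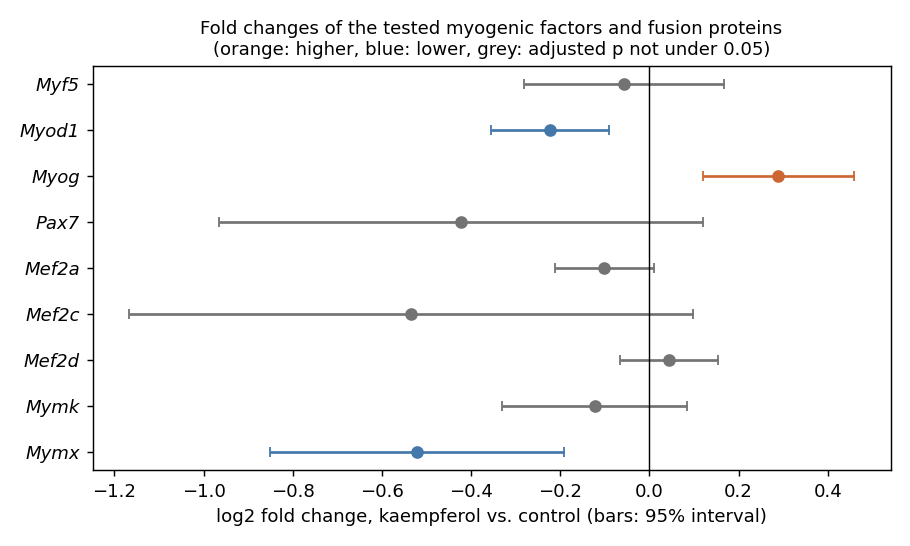
log2 fold change of kaempferol vs. control (x axis) for the 9 genes that could be tested (rows), with bars for the 95% interval. Myog lies above 0, Myod1 and Mymx lie below it, and the intervals of the other 6 genes include 0, from -1.17 to 0.10 for Mef2c to -0.07 to 0.15 for Mef2d.

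Levels of different genes were ordered per length, as CPM per kilobase of the gene length listed in the table. That length counts all exonic bases over the annotated transcripts: 14681 for Mef2a, 5985 for Mef2d and 15715 for Mef2c. In plain CPM, Mef2a at 129 stood above Mef2d at 120 in control, and Mef2d at 124 above Mef2a at 121 with kaempferol. The order and the shares below therefore depend on this divisor. In the control libraries Myod1 was the highest of the 10 genes at 31.2 (range 29.8 to 32.2), and Myog at 22.2 and Mef2d at 20.1 followed, with ranges that overlapped each other. Mymk at 13.4, Mef2a at 8.81, Myf5 at 8.17 and Mymx at 6.97 came next, each apart from its neighbours. Pax7 at 0.402, Mef2c at 0.129 and Myf6 at 0.124 formed a low end, where the ranges of Mef2c and Myf6 overlapped. In the kaempferol libraries Myog, at 27.1 (range 24.0 to 29.5), and Myod1, at 26.7 (range 25.3 to 28.4), overlapped at the top, and Mef2a and Myf5 overlapped as well. Compared with protein-coding genes that were tested, the control level per length was above that of 86.4% of them for Myod1, 80.2% for Myog, 67.9% for Mymk, 48.1% for Mymx and 1.78% for Mef2c.

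Ratios between members show the same libraries without the scaling between libraries. 5 ratios were computed. They were chosen after the values were seen and carry no test. Myog over Myod1, per length, was 0.674, 0.723 and 0.737 in control and 0.908, 1.04 and 1.10 with kaempferol. Myog thus stood below Myod1 in all control libraries and about level with it in the kaempferol libraries. Mymk over Mymx was 1.94, 1.93 and 1.90 in control and 2.86, 2.28 and 2.53 with kaempferol. Mymk itself ranged from 17.3 to 22.1 CPM in control. The control ratios scattered less than counting error at the mean count, which was 5.44% for Mymk and 9.74% for Mymx. Their closeness is therefore no evidence of a fixed proportion. Mef2d over Mef2a was 2.28, 2.30 and 2.26 in control and 2.52, 2.56 and 2.49 with kaempferol. The size of this ratio depends on the listed lengths, but its relative move between groups does not. The proportion moved by more than its spread within a group although neither gene was called. That spread (SD 0.0175 in control and 0.0350 with kaempferol) was below counting error, 2.14% for Mef2a and 2.16% for Mef2d, so it is too small a yardstick. Mymk over Myog was 0.669, 0.531 and 0.616 in control and 0.527, 0.423 and 0.425 with kaempferol, lower in all kaempferol libraries but only just so in replicate 1. Myod1 over Myf5 was 3.89, 3.65 and 3.91 in control and 3.72, 4.00 and 2.73 with kaempferol, and its groups overlapped. The summed level of the 4 myogenic regulatory factors was 59.6 to 64.4 CPM per kilobase in the control libraries and 57.8 to 65.0 in the kaempferol libraries. Within that sum the share of Myod1 was 50% to 51.8% in the control and 40.5% to 45.8% in the kaempferol libraries, and the share of Myog was 34.9% to 36.8% and 41.5% to 45.3%.

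**Figure D3:**
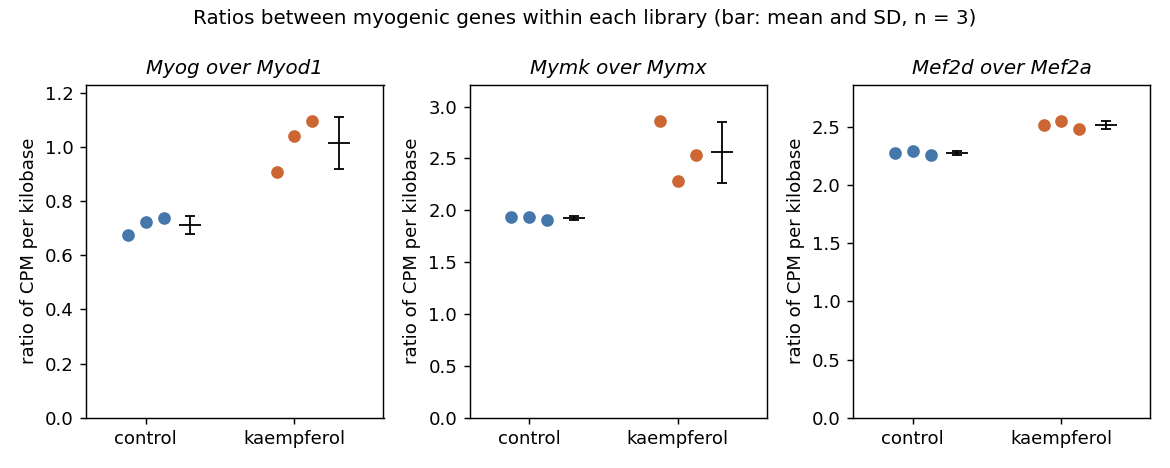
Ratio of CPM per kilobase (y axis, from 0) for Myog over Myod1, Mymk over Mymx and Mef2d over Mef2a in each control and kaempferol library (points), with mean and SD beside them. These are 3 of the 5 ratios computed, and in each of these panels the 3 kaempferol libraries sit above the 3 control libraries, for example at 0.908 to 1.10 against 0.674 to 0.737 for Myog over Myod1.

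Most bHLH partners and antagonists did not pass the test. E proteins are the obligate partners of the myogenic regulatory factors, ID proteins take the E proteins away from them, and HES and related repressors hold differentiation back. Of 18 tested genes of this list, 2 were upregulated and 4 downregulated (33.3%, beside 24.0% of all tested genes), with a median log2 fold change of -0.03. Hes6, which counters Hes1, rose from 36.3 ± 2.96 to 48.0 ± 3.65 CPM and Bhlhe41, a bHLH repressor, from 40.6 ± 2.90 to 53.3 ± 3.38 CPM. Bhlhe40, its close relative, fell from 93.5 ± 3.43 to 77.6 ± 3.43 CPM. Hes1, the main effector of Notch signaling, fell from 27.8 ± 2.70 to 22.3 ± 1.02 CPM, with an adjusted p of 0.0101 from edgeR's quasi-likelihood test that rose to at most 0.0683, without control replicate 1 or 2. Of the E protein genes Tcf12 fell from 197 ± 3.50 to 170 ± 0.999 CPM (adjusted p = 0.00158), while Tcf3 and Tcf4 had log2 fold changes of -0.09 and -0.10 (adjusted p = 0.132 and 0.218). Id1, Id2 and Id3 had log2 fold changes of -0.04, -0.08 and 0.04 (adjusted p = 0.76, 0.574 and 0.585). The number downregulated was 2 without control replicate 1 and 2 without control replicate 2.

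The cofactors of MEF2 were called in both directions, more of them lower. Class IIa histone deacetylases bind MEF2 and silence it, while acetyltransferases and chromatin remodelers act as its coactivators and those of MyoD. Of 18 tested genes, 2 were upregulated and 9 downregulated (61.1%, beside 24.0%), and the median log2 fold change was -0.21. Hdac4 rose from 76.7 ± 4.21 to 103 ± 2.26 CPM (log2 fold change 0.42, SE 0.0516, edgeR adjusted p = 9.52e-06). Hdac9 rose from 10.2 ± 0.598 to 13.1 ± 0.465 CPM (adjusted p = 0.0181). Hdac5 and Hdac7 of the same class fell, with log2 fold changes of -0.28 and -0.20. The acetyltransferase genes Ep300 and Kat2b fell by 0.33 and 0.30 on the log2 scale, Ep300 from 170 ± 4.68 to 136 ± 11.5 CPM. The call of Hdac9 was lost with DESeq2 and without control replicate 2 or kaempferol replicate 2, with an adjusted p of at most 0.0631 in the left-out libraries, and the number upregulated was then 1.

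Of 14 tested upstream regulators of the myogenic genes, 2 were upregulated and 2 downregulated (28.6%, beside 24.0% of all tested genes). The median log2 fold change of these upstream factors was 0.01. Eya1, a transcriptional coactivator, rose from 28.6 ± 1.99 to 39.2 ± 1.81 CPM (log2 fold change 0.45, adjusted p = 0.000201). Six4, a homeobox factor of muscle precursors, had a log2 fold change of -0.08 (adjusted p = 0.477). Nfix, a factor of the fetal muscle program, fell from 454 ± 14.3 to 377 ± 13.1 CPM. The other calls, Eya4 at 0.18 and Ezh2 at -0.18 on the log2 scale, were each lost when single libraries were left out, Eya4 in 5 of 6 cases and Ezh2 in 4 of 6, with an adjusted p of up to 0.141 and 0.221. One call in each direction, Eya1 and Nfix, was kept in all 6 cases.

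Fusion depends on adhesion molecules, membrane proteins and regulators of actin around Mymk and Mymx. Of 38 tested genes of the fusion machinery, 7 were upregulated and 12 downregulated (50%, beside 24.0% of all tested genes), with a median log2 fold change of -0.07. The largest falls were those of Kirrel3, an adhesion molecule of the immunoglobulin family, from 22.5 ± 1.26 to 15.6 ± 0.942 CPM (log2 fold change -0.53), and of Arhgap10, from 64.7 ± 0.758 to 49.6 ± 0.404 CPM (log2 fold change -0.38). Cdh15, the muscle cadherin, fell from 133 ± 6.28 to 107 ± 2.87 CPM (log2 fold change -0.31, adjusted p = 0.000136). Cd81, a tetraspanin, rose from 225 ± 4.58 to 289 ± 4.45 CPM (log2 fold change 0.36). Jam3, an adhesion molecule, had a log2 fold change of 0.37, but its adjusted p of 0.023 reached 0.108 in the left-out libraries and its call was lost in 3 of 6 cases. The number of upregulated genes was 4 without kaempferol replicate 2.

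Muscle genes that myogenic factors and MEF2 switch on went in both directions. Of 42 tested genes, 5 were upregulated and 10 downregulated (35.7%, beside 24.0%), with a median log2 fold change of -0.05. Actc1, an actin of early differentiating muscle, rose from 16.7 ± 1.56 to 28.1 ± 1.63 CPM (log2 fold change 0.75) and Acta1, the skeletal actin, from 194 ± 21.6 to 231 ± 11 CPM (log2 fold change 0.26). Eno3, the muscle enolase, fell from 525 ± 26.8 to 368 ± 13.8 CPM, Smyd1, a muscle methyltransferase, from 9.91 ± 1.11 to 6.48 ± 0.636 CPM, and Myh4, a fast myosin, from 1.67 ± 0.348 to 0.594 ± 0.249 CPM. The fall of Myh4 rests on few counts, 24, 37 and 26 in control and 14, 11 and 6 with kaempferol. Its log2 fold change had a wide 95% interval of -2.28 to -0.72. Myh3, the embryonic myosin of new myotubes, was at 79.3 ± 5.74 and 79.1 ± 3.20 CPM (log2 fold change -0.00, 95% interval -0.12 to 0.12), and Ckm, the muscle creatine kinase, at 4.66 ± 0.623 and 3.84 ± 0.546 CPM (adjusted p = 0.298). Named after their values were seen, the acetylcholine receptor subunit genes Chrna1, Chrnb1, Chrnd and Chrng were all downregulated, with log2 fold changes of -0.30, -0.45, -0.27 and -0.39. Rapsn, which anchors the receptor, was downregulated too (log2 fold change -0.26, adjusted p = 0.0185), with the call lost without control replicate 1, control replicate 3 or kaempferol replicate 3. Musk, the receptor kinase of the same synapse, had a log2 fold change of 0.26 with all kaempferol libraries above all controls, did not pass the test (adjusted p = 0.053), and passed it under 6 of 14 alternatives. The calls of Chrnd and Chrng were lost without control replicate 1 or kaempferol replicate 3, where the number of downregulated genes in the list was 6 and 7. The number of upregulated genes was 3 without control replicate 2 and 3 without kaempferol replicate 2. Tnnc2, the fast troponin C, was at 0 counts in all libraries, and its span on chromosome 2 overlaps that of Ube2c on the opposite strand, which had 2424 to 2843 counts.

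**Figure D4:**
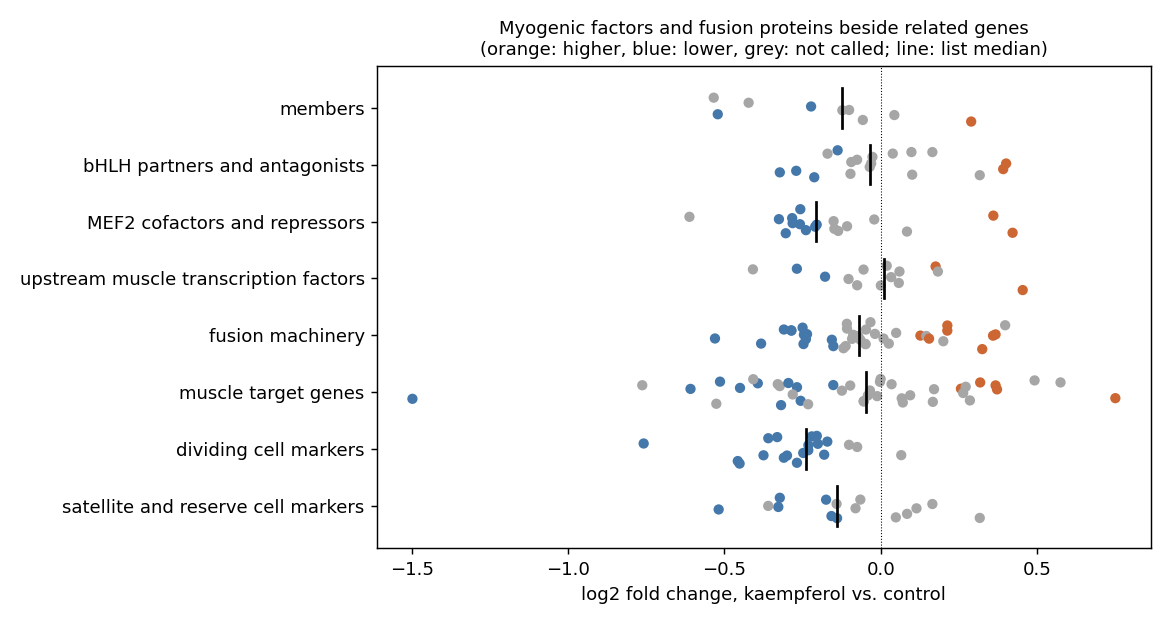
log2 fold change of kaempferol vs. control (x axis) for each tested gene (points, orange for upregulated, blue for downregulated, grey for not called) of the 10 described genes, 5 lists of related genes and 2 lists of markers (rows), with the median of each list as a line. The medians of the MEF2 cofactors and of the dividing cell markers, -0.21 and -0.24, lie furthest below 0.

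Markers of dividing cells moved with the groups. Of 20 such markers, 17 were downregulated and none upregulated (85.0%, beside 12.6% downregulated among all tested genes), and their summed level was 4814 to 4996 CPM in the control libraries and 3885 to 4000 CPM in the kaempferol libraries, with no marker at 0. Mki67 fell from 665 ± 38.3 to 393 ± 34.2 CPM, and Plk1, Ccna2 and Bub1b, which act in mitosis and the cell cycle, had log2 fold changes of -0.46, -0.45 and -0.38. Of 15 tested markers of satellite and reserve cells, 6 were downregulated and none upregulated (40.0%), and the summed level of the 20 listed was 1223 to 1232 CPM and 1022 to 1120 CPM, with Calcr at 0. The number downregulated was 2 without control replicate 1 and 3 without control replicate 2 or kaempferol replicate 1. Most of the sum was Notch2, Notch3, Cd34, Sdc4 and Met, at 322, 177, 173, 162 and 110 CPM in control. Pax3, Chodl, Fgfr4 and Col15a1 had 0 to 7 counts in a library. Sdc4 fell from 162 ± 6.01 to 113 ± 4.24 CPM and Notch1 from 65.0 ± 2.25 to 51.8 ± 5.05 CPM, and Notch3 had a log2 fold change of -0.17 whose call was lost without control replicate 1, control replicate 3 or kaempferol replicate 1 (adjusted p up to 0.119). Fibroblast markers summed to 4376 to 4797 CPM and 3418 to 3696 CPM, with Tcf21 at 0, and of 5 tested 1 was upregulated and 3 were downregulated. Most of that sum was Col3a1 and Col1a1, at 3196 and 1083 CPM in control, and Lum and Thy1 had 0 to 5 counts in a library. Pdgfra rose from 38.7 ± 2.63 to 53.0 ± 3.63 CPM, while the matrix genes Col1a1, Col3a1 and Dcn had log2 fold changes of -0.70, -0.32 and -0.27, and the call of Dcn was lost in 5 of 6 left-out libraries (adjusted p up to 0.138). Osteoblast markers summed to 3002 to 3067 CPM and 2229 to 2334 CPM, almost all of it Spp1, which fell from 2943 to 2201 CPM. Of 3 tested osteoblast markers 1 was upregulated and 1 downregulated. The upregulated one was Bglap2, an osteocalcin gene, with 3, 5 and 6 counts in control and 17, 27 and 18 with kaempferol (log2 fold change 2.09, adjusted p = 0.0024). Its sequence is close to that of Bglap, so its reads are uncertain. Runx2 went from 80.2 ± 8.97 to 71.7 ± 0.696 CPM and was not called, Ibsp was at 0, and Sp7, Bglap and Alpl had 0 to 4 counts in a library. Adipocyte markers summed to 34.5 to 40.7 CPM and 49.9 to 52.0 CPM, and Adipoq, Cidec, Lep and Cfd were at 0. Of 2 tested adipocyte markers Cebpa was upregulated, from 27.6 ± 1.90 to 41.3 ± 1.67 CPM. Des, a muscle intermediate filament, was among the genes set as a check on the labelled cell type and was abundant in both groups. It was itself downregulated, from 652 ± 25.4 to 587 ± 23.9 CPM (log2 fold change -0.15, adjusted p = 0.0224). Of the other check genes, Acta1 was at 194 CPM in control, Myh3 at 79.3, Mylpf at 77.9 and Tnnt3 at 20.3. Ckm was low at 4.66 CPM in control and Tnnc2 was at 0 in all libraries, so the check did not hold for each of these genes. Dividing cell markers were abundant in control too, with Mki67 at 665 CPM, and the share of fused cells cannot be read from these data. The part of these markers in the changes of Myod1, Myog and Mymx was not tested.

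For the 3 called genes, the genes of most similar profile were sought among 10266 protein-coding genes with a mean of at least 5 CPM, by the root mean square difference of centred log2 CPM over the 6 libraries. They were Casp2, Col6a1 and Ppp1r21 for Myod1 (0.0227 to 0.0270 log2 units), Ipp, Cdh13 and Dclk2 for Myog (0.0357 to 0.0430) and Tmem119, Spon2 and Arrb1 for Mymx (0.0844 to 0.0860). With 6 libraries and so many candidates a close profile is a description only. None of the 10 genes was among the nearest genes of a called one. Pax7, Mef2c and Myf6 lay under the limit of 5 CPM, so they could not have been.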

How the data were processed

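mRNA of 3 control and 3 kaempferol libraries was captured by its poly(A) tail, copied from random hexamers and sequenced. The authors deposited raw read counts per gene, with gene name, coordinates and the length of each gene (other, in bases). Their processing notes list the build mm10, read cleaning with fastp, and HISAT2 2.0.5, featureCounts 1.5.0-p3, StringTie 1.3.3b and DESeq2 1.20.0. The annotation release and strand setting are not given in the sources used here, and all 10 genes have the same coordinates in GENCODE M21. Without a stated strand setting, reads of overlapping genes on opposite strands cannot be told apart. One line of the table was emptied and was not used.

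The fit used edgeR 4.0.16 in R 4.3.3: default filter (minimum count 10, minimum total 15), TMM factors, quasi-likelihood test, fitted on all genes, two-sided. Standard errors are those the test statistic implies. log2 CPM used a prior count of 2. Within a group, the variance between libraries was 3.25 to 5.17 times counting variance, so no library was a copy of another. Other settings tried were a replicate block, each library left out, DESeq2 1.42.0, the likelihood ratio test, upper-quartile and RLE factors, 2 other filters, and an adjusted p under 0.01. In counts simulated over 14338 genes, true changes were set in 67 genes at 1.5-fold, 67 at 2-fold and 66 at 4-fold. The test found 65.7%, 80.6% and 95.5% of these, in that order, and 11 of its 172 calls were false. That is a far smaller share of changed genes than the 24.0% called in the real table, so these rates need not hold there. The called changes of Myod1, Myog and Mymx are smaller than the smallest simulated. The 10 genes and all lists were chosen with earlier results of these data known. Named genes were the 10, up to 4 called genes of each list with the largest change, a fixed set of partners, of which 1 is not reported here, genes that overlap 1 of the 10, and the most similar genes by the rule given in the text. The muscle genes set as a check on the cell type were named too. Chrna1, Chrnb1, Chrnd, Chrng, Rapsn and Musk were named after their values were seen. Promoter sequences are from RefSeq (GRCm38.p6) and the coding sequence from GENCODE M21.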

Additional observations from a re-analysis of the deposited data

How the results depend on the processing

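Direction was kept for Myod1, Myog, Mymx, Mymk, Mef2a, Mef2c and Pax7 under all 14 alternatives. Deviations of same-numbered libraries correlated at -0.02, -0.06 and -0.05, so no pairing by number was seen. With 3 libraries a group this cannot exclude a pairing. With the replicate number as a block, 1 of the 10 genes was upregulated and 2 downregulated, as without it. Among upstream factors the block left 1 upregulated and 1 downregulated gene, and over all genes 1337 and 1413 in place of 1647 and 1840. The stricter limit of 0.01 left 953 rises and 1026 falls in the whole table, and 1210 genes were downregulated without control replicate 1. At an adjusted p under 0.01 none of the 10 genes was called (0 upregulated and 0 downregulated), while 3 had an unadjusted p under 0.05 in edgeR, and the counts were 2 downregulated for the bHLH list, 1 upregulated for MEF2 cofactors, 4 upregulated for the fusion machinery, 3 upregulated and 6 downregulated for muscle target genes, and 1 and 1 for upstream factors. With DESeq2, 1 of the 10 genes was downregulated, 1 MEF2 cofactor and 3 muscle target genes were upregulated, and 1 and 1 upstream factors were called. Upper-quartile factors left 1 upstream factor downregulated. Myh3, not called in any fit, had a log2 fold change of 0.0252 with upper-quartile factors and 0.0043 with at least 10 counts in every library, beside -0.0023. Over left-out libraries the ranges of counts were 0 to 1 upregulated and 0 to 2 downregulated for the 10 genes, 2 to 2 upregulated and 2 to 4 downregulated for the bHLH list, 1 to 2 upregulated and 7 to 11 downregulated for MEF2 cofactors, 1 to 2 upregulated and 1 to 2 downregulated for upstream factors, 4 to 6 upregulated and 10 to 13 downregulated for the fusion machinery, and 3 to 6 upregulated and 6 to 11 downregulated for muscle target genes. Over left-out libraries the log2 fold change ranged from -0.1936 to 0.0079 for Myf5, -0.0016 to 0.0917 for Mef2d, -0.0845 to 0.015 for Id1, -0.1439 to 0.0171 for Id2, -0.1318 to 0.0064 for Six4 and -0.0469 to 0.0581 for Myh3. Without length in the level order, 5 of the 10 genes changed rank in control and 7 with kaempferol. All 9 most similar genes stayed with a prior count of 0.5. Counts of 19 to 47 for Mef2c, 24 to 46 for Pax7 and 0 to 5 for Myf6 limit what can be said of them. The causes of these changes were not tested.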
